A study of Mus musculus with 8 samples.

Results

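Dietary lipid absorption was described through 10 genes of fatty acid and sterol uptake, fatty acid binding, triacylglycerol synthesis and chylomicron assembly: Cd36, Npc1l1, Fabp1, Fabp2, Dgat1, Dgat2, Apob, Mttp, Apoa1 and Apoa4. They were taken by symbol from a count table of 54532 mouse genes, and each symbol matched 1 gene identifier. Gene coordinates are on the mouse build GRCm38, and no exon of these 10 genes overlaps another gene on the same strand. The table held 8 libraries of mouse small intestinal organoids, which are crypt-derived epithelial cultures without stroma. Of these, 4 were controls and 4 were treated with RANKL, the ligand of the receptor RANK. The mouse lines of the study were kept on the C57BL/6J background. Neither the labels nor the methods used here give the sex or genotype of the organoid donors, or the RANKL dose and exposure time of these libraries. The study's organoids were grown in Matrigel in a medium with EGF, NOGGIN and R-spondin, which favours crypt-like growth, and without blood, lymph, bile or a fat meal. The labels do not say whether libraries of a group came from separate cultures or animals, so p-values measure the spread between these libraries, which may be technical.

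Enterocytes take up the fatty acids and monoacylglycerols that pancreatic lipase releases in the gut lumen, and cholesterol through a separate carrier. Inside the cell, fatty acid-binding proteins carry the fatty acids to the endoplasmic reticulum, where they are joined to glycerol again to make triacylglycerol. Microsomal triglyceride transfer protein then loads this fat onto apolipoprotein B, smaller apolipoproteins coat the particle, and the resulting chylomicron leaves the cell towards the lymph.

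The libraries held 583663 to 7807298 counts on genes, with the shallowest and the deepest both among the controls and all RANKL libraries at or below 1923354. Values are given in CPM, that is, counts scaled to a common library total, with each total first corrected for composition by its TMM factor. The kit reads each transcript once near its 3′ end, so a count does not grow with transcript length and levels of different genes can be set side by side without dividing by length, apart from differences in priming. RANKL was tested against control with edgeR's quasi-likelihood test over 9971 genes that passed a filter on low counts, and a gene is said to have risen or fallen where its Benjamini-Hochberg adjusted p was below 0.05. A log2 change is the fitted log2 fold change of RANKL against control, with its standard error after ±, while ± after a CPM value is an SD. CPM values of single libraries are listed in the order of replicates 1 to 4.

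The lipid absorption genes moved apart. Npc1l1, Dgat2 and Apoa1 rose in RANKL-treated organoids, Apob, Mttp and Dgat1 fell, and Cd36, Fabp1, Fabp2 and Apoa4 did not pass the threshold. All 10 genes passed the filter on low counts. The 6 that changed compare with 25.9% of all tested genes, the 3 that rose with 13.6% and the 3 that fell with 12.4%. Without the 2 shallowest libraries (control replicate 4 and RANKL replicate 1), 1 rose and 4 fell, as Dgat2 and Apoa1 lost their calls and Fabp1 gained one. The median log2 change of the 10 genes was -0.15, against 0.00 over all tested genes, and their values ran from -0.61 for Apob to 0.54 for Npc1l1. Together they took 0.551 to 0.596% of the counts in control libraries and 0.503 to 0.576% in RANKL libraries, so the groups overlapped in the sum while 6 of its parts did not. Over all tested genes, 24.6% had CPM values that did not overlap between the groups. In bulk RNA, fewer cells that express a gene and less of its RNA per cell cannot be told apart.

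**Figure D1:**
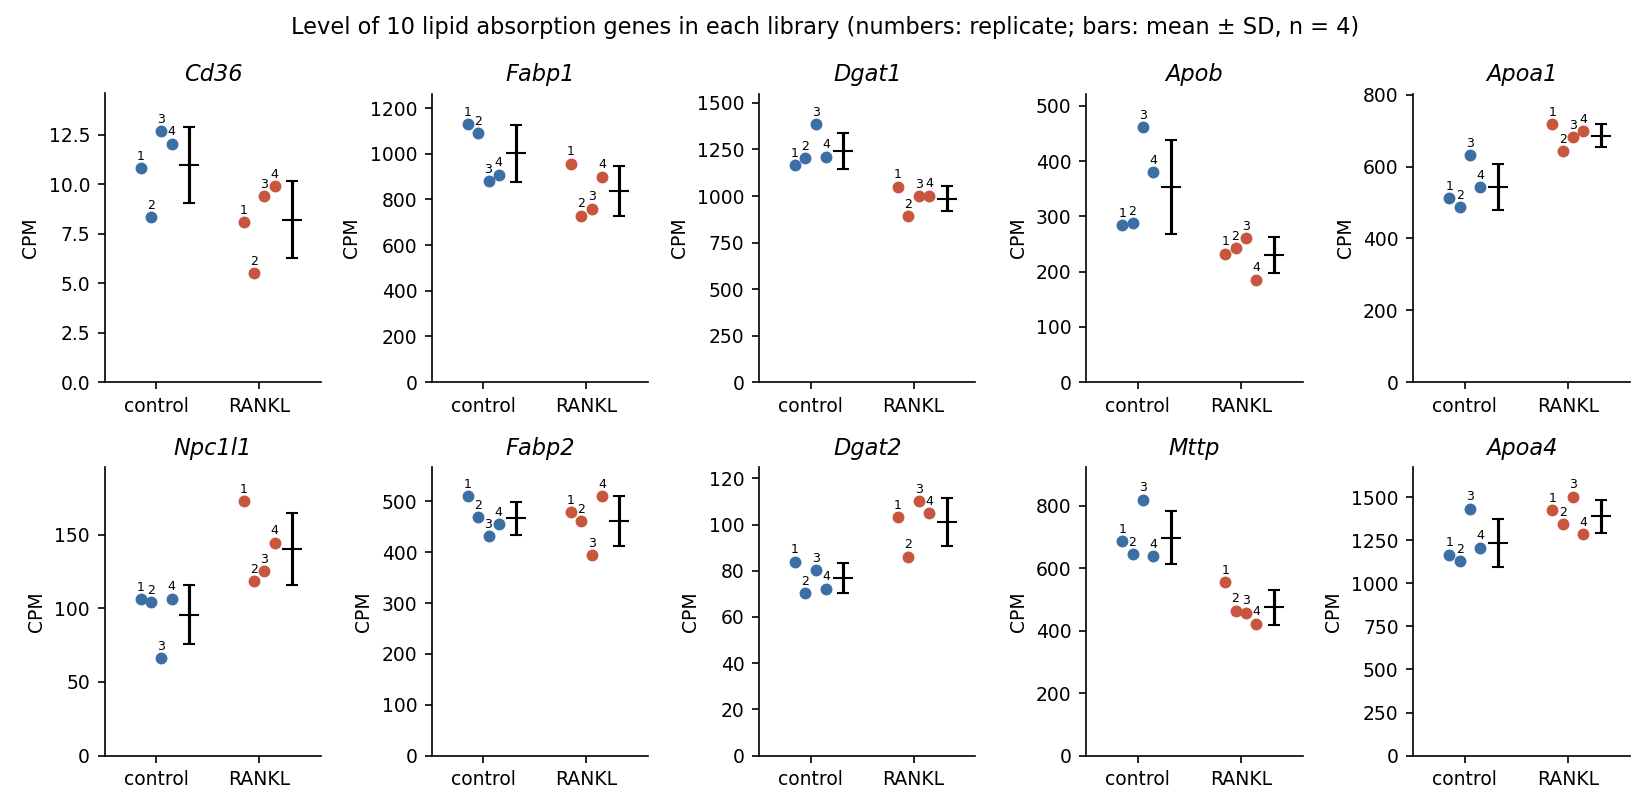
CPM of each of the 10 genes (y axis, from 0) in the 4 control and the 4 RANKL libraries (x axis), with the replicate number above each point and bars for mean ± SD (n = 4). The groups are separate for Npc1l1, Dgat1, Dgat2, Apob, Mttp and Apoa1, and overlap for Cd36, Fabp1, Fabp2 and Apoa4.

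**Figure D2:**
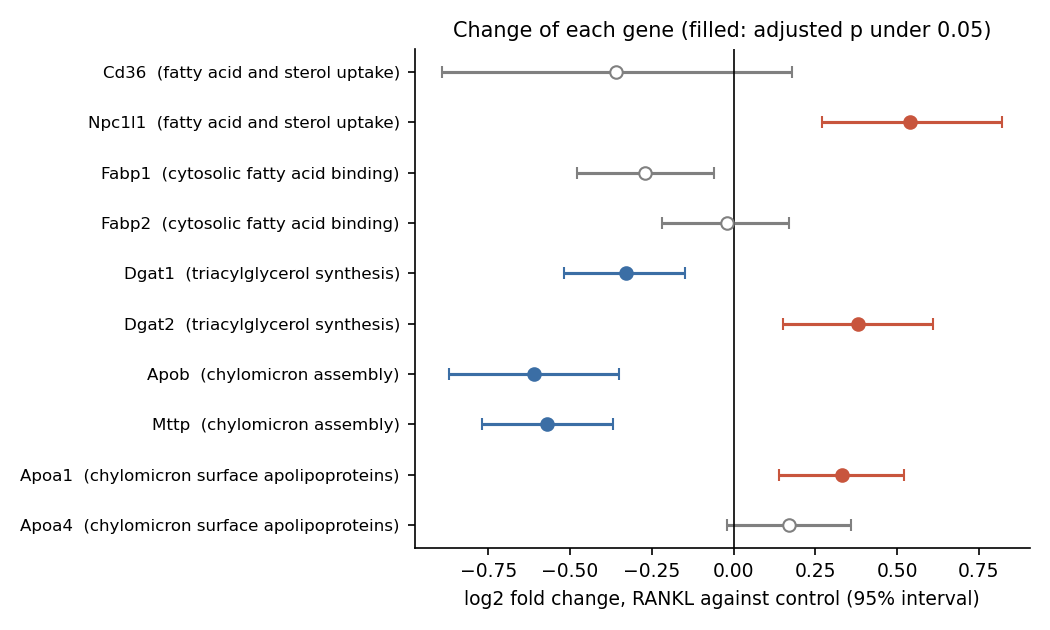
Log2 change of RANKL against control for each gene, with its 95% interval from the standard error, filled where the adjusted p was below 0.05. The 3 genes that fell (Apob -0.61, Mttp -0.57, Dgat1 -0.33) and the 3 that rose (Npc1l1 0.54, Dgat2 0.38, Apoa1 0.33) lie on both sides of 0. The interval of Fabp1 also leaves out 0, but it is not adjusted for the number of genes tested.

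The first step in the enterocyte is uptake at the brush border. Npc1l1 (chromosome 11, 6211013 to 6230143) encodes the apical carrier of dietary cholesterol, the target of ezetimibe. Its level was 106.2, 104.1, 66.1 and 106.6 CPM in the controls and 172.7, 118.4, 125.2 and 144.4 CPM with RANKL. No RANKL library was as low as any control, and control replicate 3 was far below the other controls. The mean rose from 95.8 ± 19.8 to 140.2 ± 24.4 CPM (SD, n = 4 each), a log2 change of 0.54 ± 0.14 (edgeR adjusted p = 0.0041; exact permutation test, two-sided, p = 0.0286, the smallest that 4 against 4 libraries can give). Without control replicate 3 the log2 change was 0.37 and still past the threshold, and with library depth as a covariate (its log2 total) it was 0.45 and no longer past it (adjusted p = 0.067). Cd36 (chromosome 5, 17781690 to 17888801) encodes a fatty acid translocase that is also made by endothelial cells, adipocytes and macrophages. It was the scarcest of the 10 genes, with 173 counts in all control libraries and 49 in all RANKL libraries. Its control values were 10.8, 8.32, 12.7 and 12.0 CPM and its RANKL values 8.07, 5.51, 9.39 and 9.89 CPM. The groups overlapped, and the log2 change of -0.36 had a 95% interval from -0.89 to 0.18 (adjusted p = 0.36), so a difference was not detectable at this depth, and the interval holds both a marked fall and no change.

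Fatty acid-binding proteins are small cytosolic carriers, and the small intestine makes a liver type and an intestinal type. Fabp1, the liver type (chromosome 6, 71199827 to 71205023), was at 1129, 1091, 881.4 and 908.0 CPM in the controls and at 957.4, 729.6, 759.9 and 899.6 CPM with RANKL. The groups overlapped, with RANKL replicates 1 and 4 above control replicate 3. The log2 change was -0.27 ± 0.11 (edgeR adjusted p = 0.057), just outside the threshold, and it passed under 7 of 18 alternatives, among them the fits without control replicate 3, control replicate 4 or RANKL replicate 1. Fabp2, the intestinal type (chromosome 3, 122895072 to 122899506), was at 510.2, 469.6, 431.1 and 455.7 CPM in control and at 479.5, 461.1, 394.3 and 510.2 CPM in RANKL libraries. The libraries of both groups were interleaved, and the log2 change of -0.02 had a 95% interval from -0.22 to 0.17 (adjusted p = 0.90).

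The last step of triacylglycerol synthesis is catalysed by a pair of unrelated acyltransferases. Dgat1 (chromosome 15, 76502015 to 76511953), the isoenzyme that dominates in intestine, was at 1166, 1204, 1385 and 1211 CPM in the controls. With RANKL it was at 1051, 892.0, 999.2 and 1002 CPM, all below the lowest control. The mean fell from 1241 ± 97.8 to 986.1 ± 67.1 CPM (SD, n = 4 each), a log2 change of -0.33 ± 0.09 (edgeR adjusted p = 0.0079), which was not past the threshold without RANKL replicate 2 (adjusted p = 0.053, against 0.0027 to 0.025 in the other alternatives). Dgat2 (chromosome 7, 99153658 to 99182719) was much scarcer, at 83.9, 70.3, 80.3 and 72.2 CPM in control and 103.3, 86.0, 110.0 and 104.9 CPM in RANKL libraries. Every RANKL library lay above every control, with RANKL replicate 2 only just so. The mean went from 76.7 ± 6.48 to 101.1 ± 10.4 CPM, a log2 change of 0.38 ± 0.12 (adjusted p = 0.017). This call was lost under 6 of 18 alternatives, among them thinning all libraries to the shallowest total (log2 change 0.28) and leaving out control replicate 2 or RANKL replicate 3 or 4.

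Apob and Mttp, which build the core of the chylomicron, fell together. Apob (chromosome 12, 7977648 to 8016835) encodes the scaffold apolipoprotein of which 1 copy stays with each particle. It was at 284.2, 287.7, 461.0 and 380.1 CPM in the controls and at 232.5, 243.0, 260.2 and 185.6 CPM with RANKL. All RANKL libraries were below all controls, and the controls were split, with replicates 3 and 4 well above 1 and 2. The mean fell from 353.2 ± 84.5 to 230.3 ± 31.9 CPM (SD, n = 4 each), a log2 change of -0.61 ± 0.13 (edgeR adjusted p = 0.00079), which was -0.42 without control replicate 3. Mttp (chromosome 3, 138089854 to 138144968) encodes the large subunit of the transfer protein that lipidates apolipoprotein B. Its values were 687.0, 645.6, 819.8 and 638.0 CPM in control and 555.4, 463.9, 457.9 and 422.9 CPM in RANKL libraries. Here too the groups were apart, control replicate 3 was highest and RANKL replicate 4 lowest. The log2 change was -0.57 ± 0.10 (adjusted p = 9.0e-05), and both genes stayed past the threshold in all 18 alternatives, from -0.71 to -0.42 for Apob and from -0.68 to -0.49 for Mttp. Intestinal Apob mRNA is edited to give the short protein apolipoprotein B-48, and gene counts do not show which form a transcript encodes.

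Apoa1 and Apoa4 encode apolipoproteins of the chylomicron surface, the former also the main protein of high-density lipoprotein. Apoa1 (chromosome 9, 46228580 to 46230466) was at 512.1, 487.3, 632.5 and 543.4 CPM in the controls and at 718.4, 643.5, 681.6 and 699.2 CPM with RANKL. The lowest RANKL library lay only just above control replicate 3. The mean rose from 543.8 ± 63.4 to 685.7 ± 31.9 CPM (SD, n = 4 each), a log2 change of 0.33 ± 0.10 (edgeR adjusted p = 0.011). It was 0.31 and not past the threshold with library depth as a covariate (adjusted p = 0.056) or without the 2 shallowest libraries (adjusted p = 0.061), against adjusted p from 0.00038 to 0.049 in the other alternatives. Apoa4 (chromosome 9, 46240696 to 46243459), 10230 bases further along, was at 1166, 1128, 1433 and 1206 CPM in control and 1426, 1341, 1502 and 1286 CPM in RANKL libraries. All RANKL libraries were above control replicates 1, 2 and 4, but 3 of them lay below control replicate 3. Its log2 change of 0.17 had a 95% interval from -0.02 to 0.36 (adjusted p = 0.21), and it passed the threshold only without control replicate 3 (log2 change 0.25, adjusted p = 0.032) among the alternatives run. Between these genes lies Apoc3 (chromosome 9, 46232933 to 46235636), whose product slows the clearance of triacylglycerol-rich particles. It rose from 103.8 ± 15.8 to 133.1 ± 7.66 CPM, a log2 change of 0.32 (adjusted p = 0.042), a call lost under 10 of 18 alternatives, including the fits without any 1 of control replicates 1 and 4 and RANKL replicates 1 to 4. Apoa5, the fourth gene of this cluster, had 0 counts in all libraries.

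The promoters of genes that fell (Apob and Mttp) and that rose (Apoa1 and Npc1l1) are shown so that their letters can be set beside the opposite changes. They are RefSeq windows on GRCm38.p6 of 300 bases, from 250 before to 50 after the annotated start, written 5′ to 3′ on the strand of the gene, and 8 of the 10 genes had a window. Dgat1 and Dgat2 had none. The windows lie at chr12:7977427-7977726 on the plus strand for Apob, chr3:138143369-138143668 on the minus strand for Mttp, chr9:46228380-46228679 on the plus strand for Apoa1 and chr11:6230196-6230495 on the minus strand for Npc1l1. These RefSeq starts differ from the ends of the gene coordinates given above. The Mttp window lies inside its gene, whose 5′ end is at 138144968, and the Npc1l1 window lies wholly beyond its gene, which ends at 6230143. Other annotated starts were not searched. Capitals mark matches, on either strand, to any of 6 motifs named in the next paragraph.
Apob: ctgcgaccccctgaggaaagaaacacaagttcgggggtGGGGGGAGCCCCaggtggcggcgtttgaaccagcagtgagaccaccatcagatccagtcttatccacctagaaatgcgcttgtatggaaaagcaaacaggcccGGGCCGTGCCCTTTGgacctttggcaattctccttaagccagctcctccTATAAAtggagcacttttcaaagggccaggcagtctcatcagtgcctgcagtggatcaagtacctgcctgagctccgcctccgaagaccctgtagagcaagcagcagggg
Mttp: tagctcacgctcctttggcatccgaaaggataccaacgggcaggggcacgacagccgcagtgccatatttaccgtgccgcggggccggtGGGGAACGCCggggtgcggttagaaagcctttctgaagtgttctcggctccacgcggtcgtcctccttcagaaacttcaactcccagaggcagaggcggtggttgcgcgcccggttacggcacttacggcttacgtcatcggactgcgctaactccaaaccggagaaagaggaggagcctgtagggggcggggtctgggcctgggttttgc
Apoa1: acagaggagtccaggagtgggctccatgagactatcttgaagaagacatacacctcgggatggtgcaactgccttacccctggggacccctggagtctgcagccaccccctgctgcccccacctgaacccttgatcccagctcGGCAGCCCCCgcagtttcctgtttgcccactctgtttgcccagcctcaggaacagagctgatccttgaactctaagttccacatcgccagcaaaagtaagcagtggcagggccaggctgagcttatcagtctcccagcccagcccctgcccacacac
Npc1l1: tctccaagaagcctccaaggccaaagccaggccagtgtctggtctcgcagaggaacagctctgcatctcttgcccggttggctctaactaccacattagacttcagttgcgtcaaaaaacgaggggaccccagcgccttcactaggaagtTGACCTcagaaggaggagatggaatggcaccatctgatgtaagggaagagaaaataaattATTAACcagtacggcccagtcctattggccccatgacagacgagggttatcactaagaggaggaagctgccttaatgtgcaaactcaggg

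The motifs searched were the nuclear receptor half-site AGGTCA, the HNF4 core CAAAGNNCA, the HNF1 half-site GTTAAT, the CDX core TTTATG, the TATA box TATAAA and a loose NF-κB site, GGG and CC with any 5 bases between. HNF4, HNF1 and CDX proteins are transcription factors of the intestinal epithelium. Apob held an HNF4 core 103 to 95 bases before its start, on the opposite strand and sharing bases with loose NF-κB matches, and a TATA box 60 to 55 bases before it. Mttp and Apoa1 each held only a loose NF-κB site, a pattern present in 50.8% of the 32851 mouse promoter windows, and Npc1l1 held a nuclear receptor half-site and an HNF1 half-site. Among the 8 gene windows, the HNF4 core was in 3 (Apob, Apoa4 and Fabp2; 6.36% of all windows), the nuclear receptor half-site in 3 (16.3%), the HNF1 half-site in 2 (7.10%), the CDX core in 2 (11.9%), the TATA box in 2 (13.6%) and the loose NF-κB site in 5. Apoa1 and Npc1l1, the risen genes with a window, shared no motif, and Apob and Mttp shared only the loose NF-κB site, which Apoa1 also held. The motifs were chosen after the letters of these windows had been seen, so their shares among the 8 windows add no support beside those of all windows. These are matches of letters, not binding sites.

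The partners in each step were compared as a ratio of their counts within a library, which does not depend on the scaling between libraries. The change of 5 ratios was tested with the exact two-sided permutation test over 70 assignments, with p-values adjusted over the 5. The ratio of Dgat2 to Dgat1 was 0.0720, 0.0585, 0.0581 and 0.0603 in the controls and 0.0990, 0.0968, 0.110 and 0.105 with RANKL. This was a shift of 0.73 ± 0.08 (log2 scale, standard error, exact p = 0.0286, adjusted p = 0.0476) with no overlap between groups, and Dgat1 stayed by far the more abundant. Every RANKL library was above every control for Dgat2 and below every control for Dgat1. The ratio therefore had to separate, and its p adds no support beyond the results of the 2 genes. Npc1l1 gained on Cd36, with a Cd36 to Npc1l1 ratio of 0.103, 0.0811, 0.193 and 0.12 in control and 0.0512, 0.0493, 0.0769 and 0.0702 in RANKL libraries, a shift of -0.96 ± 0.31 (exact p = 0.0286, adjusted p = 0.0476). Cd36, not past the threshold itself, held only 7 counts in control replicate 4, 5 in RANKL replicate 1 and 8 in RANKL replicate 2. The highest ratio was that of control replicate 3, where Npc1l1 was far below the other controls. Apoa4 lost slightly against Apoa1, from 2.28, 2.32, 2.27 and 2.22 in control to 1.98, 2.08, 2.20 and 1.84 in RANKL libraries, a shift of -0.17 ± 0.06 (exact p = 0.0286, adjusted p = 0.0476). The adjusted p of these last 2 ratios depends on the Dgat2 to Dgat1 ratio being counted beside them, and would not be below 0.05 otherwise. The Fabp2 to Fabp1 ratio shifted by 0.24 (standard error 0.09), a difference that did not pass the threshold (exact p = 0.0571, adjusted p = 0.0714). The ratio of Mttp to Apob ran from 1.68 to 2.42 in control and from 1.76 to 2.38 in RANKL libraries, a shift of 0.04 ± 0.16 (exact p = 0.714), so the fall of one could not be told from that of the other.

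**Figure D3:**
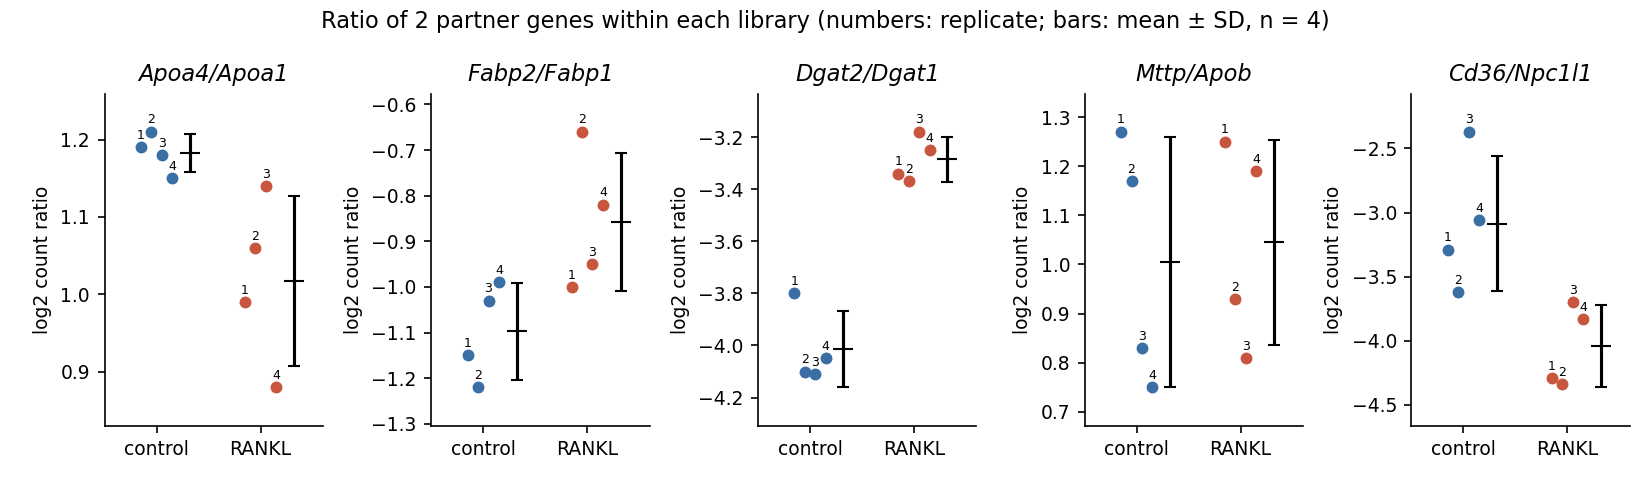
Log2 ratio of the counts of 2 partner genes within each library (y axis, a separate scale for each panel) for 4 control and 4 RANKL libraries (x axis), with replicate numbers and mean ± SD. The groups are separate for Apoa4 to Apoa1, Dgat2 to Dgat1 and Cd36 to Npc1l1, and overlap for Fabp2 to Fabp1 and Mttp to Apob.

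The order of levels in control organoids was Dgat1, Apoa4, Fabp1, Mttp, Apoa1, Fabp2, Apob, Npc1l1, Dgat2 and Cd36, from 1241 CPM down. Dgat1 and Apoa4 were level, each higher in 2 of the 4 libraries, and the library ranges of Apoa4 and Fabp1, of Apoa1 and Fabp2, of Fabp2 and Apob, and of Npc1l1 and Dgat2 also overlapped. In RANKL-treated organoids Apoa4 came first, at 1388 ± 95.02 CPM (SD, n = 4), above Dgat1 in all 4 libraries and without overlap. Apoa1 stood above Mttp in all 4 RANKL libraries, where Mttp had stood above Apoa1 in all 4 controls. Mttp and Fabp2 overlapped there, as did Dgat1 and Fabp1.

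Beside these 10 genes, 79 others of intestinal lipid handling were listed by role, and 69 had enough counts to test. Of these, 7 rose and 21 fell, 40.6% in all against 25.9% of all tested genes, with a median log2 change of -0.12. The 21 include Scarb1, which passed the filter on low counts only through the control group. Without RANKL replicate 4, only 11 fell, and 5 rose. At an adjusted p of 0.01, 10 fell and 6 rose.

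Of 10 genes of fatty acid and sterol uptake and activation, 2 rose and 5 fell (70%, against 25.9% of all tested genes). Without RANKL replicate 4, 1 rose and 3 fell, and without RANKL replicate 3, 1 rose and 4 fell. Scarb1, the scavenger receptor SR-BI, which binds lipoproteins and takes up sterols, was at 10.1, 12.1, 10.6 and 15.5 CPM in control and 3.23, 3.44, 4.17 and 6.04 CPM in RANKL libraries. It rests on 26 counts in the RANKL group, with no overlap between groups (log2 change -1.32 ± 0.31, edgeR adjusted p = 0.0015). Of that group, only RANKL replicate 4 reached the level that the filter on low counts asks for. Scarb1 thus passed the filter only through the control group, where it was higher, and its call adds no support, though it is counted among the 5 that fell. Slc27a2, a very long-chain acyl-CoA synthetase, fell from 67.0 ± 9.18 to 37.5 ± 5.78 CPM (log2 change -0.78), and Got2, a mitochondrial aspartate aminotransferase that also binds fatty acids, had a value of -0.55 with overlap between groups and a call lost without RANKL replicate 4. Acsl4, which activates long polyunsaturated fatty acids, rose from 13.9 ± 4.69 to 25.5 ± 4.34 CPM (log2 change 0.84), also a call lost without RANKL replicate 4.

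In glycerolipid synthesis, which feeds the reaction of Dgat1 and Dgat2, 2 of 10 tested genes rose and 2 fell (40%, against 25.9% of all tested genes). A pair of enzymes that add the first fatty acid to glycerol 3-phosphate went opposite ways. Gpat3 was at 41.1, 31.4, 44.6 and 58.5 CPM in control and 16.1, 19.96, 21.9 and 24.7 CPM in RANKL libraries, a log2 change of -0.94 ± 0.19 (edgeR adjusted p = 0.00027). Gpat4 was at 204.5, 216.3, 183.2 and 194.3 CPM in control and 248.6, 265.0, 269.6 and 298.2 CPM in RANKL libraries, a log2 change of 0.44 ± 0.10 (adjusted p = 0.0012). Neither gene's groups overlapped, and both calls held in all 18 alternatives, though an exon of Gpat3 overlaps the predicted gene Gm42987 on the same strand. Agpat1, which adds the second fatty acid, rose from 248.3 ± 14.2 to 338.1 ± 37.1 CPM (log2 change 0.43), and Lpcat3, a phospholipid acyltransferase, had a log2 change of -0.31, a call lost without control replicate 2 or RANKL replicate 2, 3 or 4. Of 4 tested genes of sterol efflux and esterification, 2 fell (50%, against 25.9% of all tested genes). Abcg8, a subunit of the sterol efflux pump, and Soat1, a cholesterol acyltransferase, had log2 changes of -0.41 and -0.34, lost under 8 and 11 of 18 alternatives. The count that fell was 0 with DESeq2, without RANKL replicate 1, 2 or 4 and without the 2 shallowest libraries.

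Of 10 genes of chylomicron packaging and export, 1 rose and 2 fell, a share of 30.0% that is near the 25.9% of all tested genes. The count that fell was 0 with DESeq2, in thinned libraries and without control replicate 2 or 3 or RANKL replicate 3 or 4, and 1 without control replicate 1 or RANKL replicate 1 or 2. Apobec1, the cytidine deaminase that edits Apob mRNA to the B-48 form, was at 9.04, 6.17, 6.84 and 10.3 CPM in control and 42.0, 32.4, 23.5 and 19.8 CPM in RANKL libraries. Each RANKL library was well above every control, with a log2 change of 1.82 ± 0.24 (edgeR adjusted p = 7.6e-07). A1cf, an RNA-binding partner of that enzyme, had a log2 change of -0.64 (adjusted p = 0.024) with overlap between groups, and Sar1b, a GTPase of vesicles that leave the endoplasmic reticulum, one of -0.38 (adjusted p = 0.040). These calls were lost under 8 and 12 of 18 alternatives. Of 9 tested genes of lipid droplets and lipolysis, 1 rose and 1 fell (22.2%). Pnpla2, the adipose triglyceride lipase, rose from 80.3 ± 5.67 to 149.2 ± 14.7 CPM (log2 change 0.89 ± 0.11, adjusted p = 3.0e-07), a call kept in all 18 alternatives, and Plin2, a droplet coat protein, had -0.45, lost under 6 of 18. Of 5 exchangeable apolipoproteins listed, Apoc3 was the only one with enough counts to test.

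Fatty acid oxidation, the alternative use of absorbed fatty acids, had 6 of 10 tested genes lower and 0 higher (edgeR, against 12.4% of all tested genes lower). The count of higher genes was also 0 at an unadjusted p below 0.05, with DESeq2 and with limma-voom. The count of lower genes was 3 with library depth as a covariate and 4 in thinned libraries. Cpt1a, which lets long-chain fatty acids into mitochondria, was at 68.2, 69.8, 95.5 and 77.4 CPM in control and 35.5, 31.0, 33.9 and 30.8 CPM in RANKL libraries, with a log2 change of -1.26 ± 0.15 (adjusted p = 9.7e-08). Acaa2, a thiolase, had -0.67, Acadm, the medium-chain acyl-CoA dehydrogenase, -0.56, and Acadl, the long-chain one, -0.37. Of 15 tested transcription factors of the programme, 3 fell and 0 rose past the threshold in edgeR, DESeq2 and limma-voom, with 1, Creb3l3, higher at an unadjusted p below 0.05. That gene passed the threshold with library totals alone, at a minimum of 10 counts per library and without control replicate 3. The share past the threshold was 20%, against 25.9% of all tested genes. Ppara, the fatty acid receptor that drives oxidation genes, was at 51.3, 67.4, 77.0 and 101.5 CPM in control and 35.5, 35.8, 47.5 and 27.5 CPM in RANKL libraries, all lower (log2 change -0.91 ± 0.18, adjusted p = 0.00026). Klf4, a factor of differentiating epithelium, had a log2 change of -0.51 and Hnf4g, an enterocyte nuclear receptor, of -0.48, the latter lost without RANKL replicate 4.

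**Figure D4:**
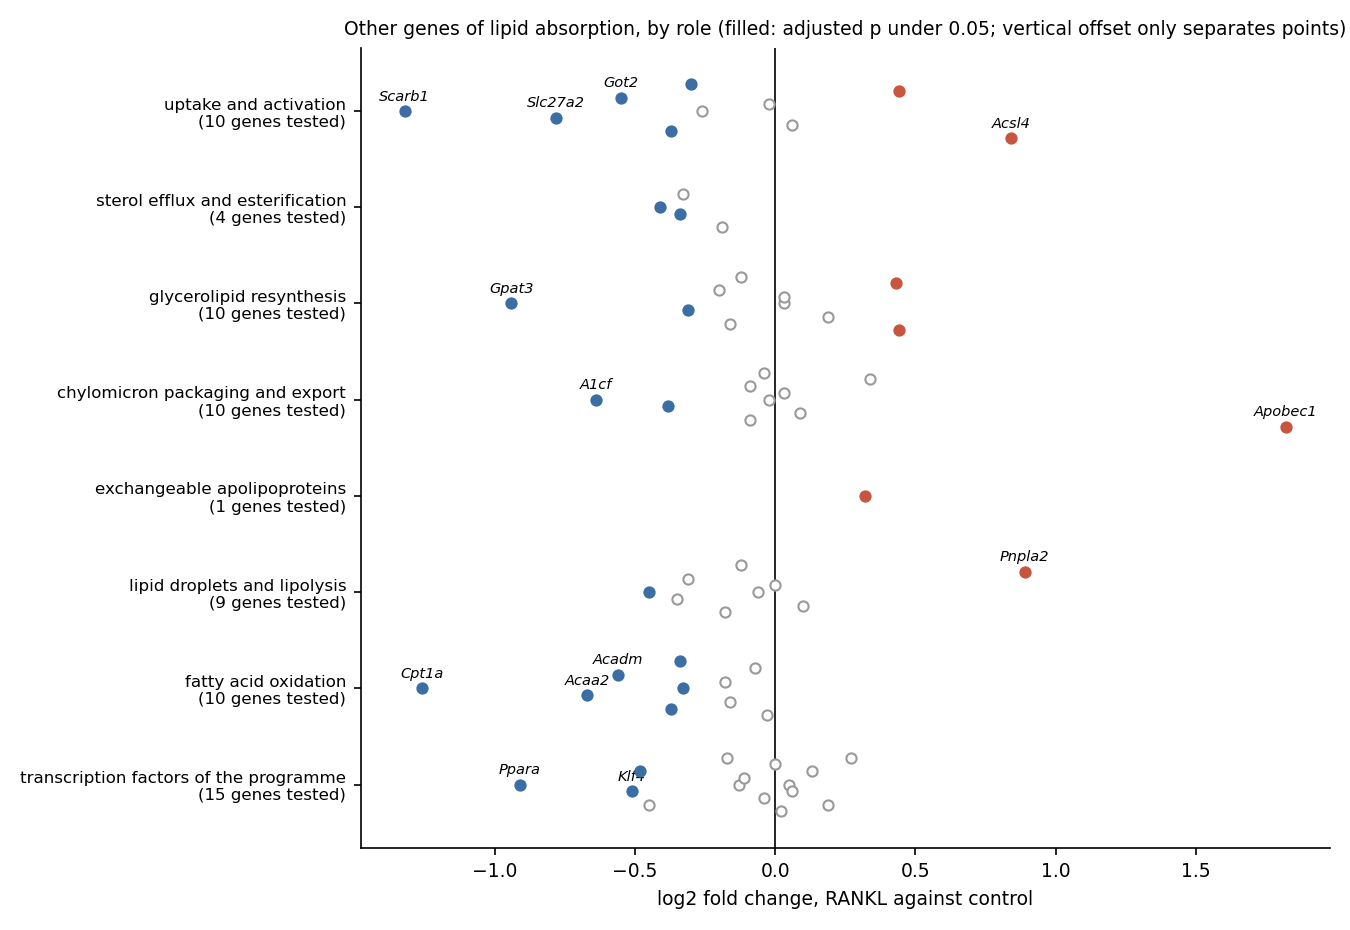
Log2 change of RANKL against control (x axis) for the 69 tested genes of the wider list, by role (y axis), filled where the adjusted p was below 0.05. Apobec1 at 1.82 lies farthest to the right, Scarb1 at -1.32 and Cpt1a at -1.26 farthest to the left, and 21 filled points lie left of 0 against 7 right of it. Scarb1 passed the filter on low counts only through the control group.

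Markers of enterocyte maturation and of other cells were read in the same fit. Of 21 genes of the brush border and of nutrient uptake, 0 rose (also 0 at an unadjusted p below 0.05, in DESeq2 and in limma-voom) and 4 fell, 19.0% in all against 25.9% of all tested genes. Without RANKL replicate 2, 2 of them fell. Among those that fell were Slc6a19, a neutral amino acid carrier (log2 change -0.86), and Slc2a2, a basolateral glucose carrier (-0.36), the latter lost under 9 of 18 alternatives. The summed level of the list was 12770 to 16100 CPM in control and 11660 to 12610 CPM in RANKL libraries. All 7 epithelial markers were present, with Krt18, Cldn7 and Krt19 lower (42.9% past the threshold, against 25.9% of all tested genes). Of 8 M cell markers, Gp2 was at 0 and 7 passed the filter on low counts. Sox8 (3 control counts in all), Spib, Tnfaip2 and Ccl20 reached the level it asks for in no control library. Marcksl1 missed that level in control replicate 3. These genes passed only through the RANKL group, where they were higher, so their calls add no support. Ccl9 and Anxa5 reached the level in every library and rose, where 13.6% of all tested genes did. Their means went from 30.9 to 76.4 CPM for Ccl9 and from 10.1 to 97.6 CPM for Anxa5. The summed level of the 8 markers was 54.1 to 60.6 CPM in control and 1876 to 2132 CPM in RANKL libraries. Most of the RANKL sum was Spib, at a mean of 1607 CPM, so the sum adds no support either. Of 5 stem cell markers, 3 fell (Lgr5, Smoc2 and Axin2) and Ascl2 rose, 80% in all against 25.9% of all tested genes. The part of these shifts in cell markers in the changes of the lipid absorption genes was not tested. Among markers of cells that also make Cd36, those of adipocytes and endothelium were at or near 0. Adipoq, Plin1, Lep and Cfd of 5 adipocyte markers and Cdh5, Kdr and Cldn5 of 5 endothelial markers had no count, and the summed levels were at most 1.61 and 3.44 CPM. The 6 macrophage and leukocyte markers summed to 5.16 to 10.7 CPM in control and 8.26 to 13.0 CPM in RANKL libraries, which is as high as Cd36 itself. Most of this was Csf1r, at a mean of 5.29 CPM in control and 4.95 CPM in RANKL libraries with overlap, and Cd14, at 1.04 and 4.78 CPM without overlap. Cd68 was at 1.85 and 0.584 CPM with overlap, Adgre1 had 3 counts and Ptprc 1 count in all, and Tyrobp was at 0. None of the 6 had enough counts for the test as reported. The part of these cells in the level of Cd36 was not tested. Markers of fibroblasts reached at most 3.44 CPM with Dcn at 0, and those of hepatocytes, which also make Apob, Mttp and Apoa1, at most 0.688 CPM with Ahsg and Serpina1a at 0.

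The genes whose log2 CPM followed a lipid absorption gene most closely over the 8 libraries were read from 9930 tested genes at a mean of at least 5 CPM, as a description. Pearson's r over 8 libraries is set largely by the difference between groups where there is one, and all genes share the libraries. For genes that fell, the closest were Crat, Mroh2a and Bclaf1 for Apob (r = 0.982, 0.981 and 0.981), Bad, Mrpl15 and Prdx6 for Mttp (0.987, 0.977 and 0.977) and Metrn, Arglu1 and Nr1i3 for Dgat1 (0.993, 0.985 and 0.974). For genes that rose, they were Ptbp3, Klf9 and Pbrm1 for Npc1l1 (0.985, 0.982 and 0.982), Ufm1, Bclaf3 and Fam20a for Dgat2 (0.985, 0.977 and 0.976) and Fam53b, A330084C13Rik and Acaa1a for Apoa1 (0.972, 0.964 and 0.963). For the 4 others they were Adap1, Ehbp1l1 and Bet1l for Apoa4, Nup85, Zdhhc2 and Ing2 for Fabp1, Slc35g1, Lcmt2 and Slc5a1 for Fabp2, and Bsn, Scin and Zzef1 for Cd36, with r from 0.894 to 0.968. None of the 10 genes was among the 3 closest to another of them.

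**Figure D5:**
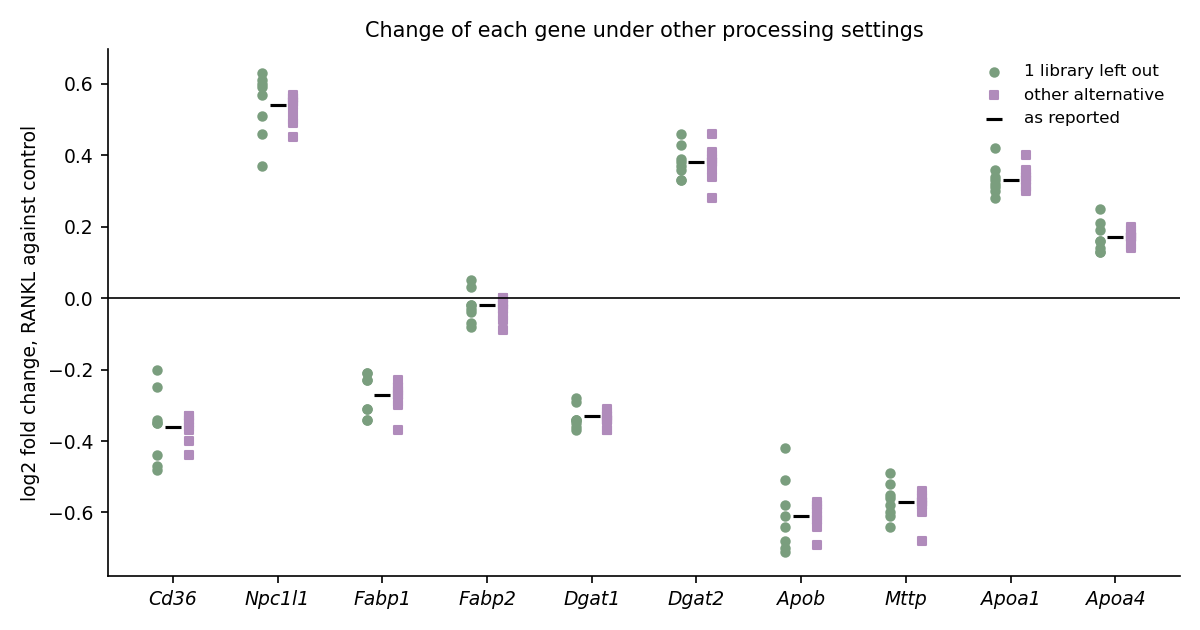
Log2 change of each lipid absorption gene (y axis) as reported (black bar), with 1 library left out (circles) and under the other alternatives (squares). Apob and Mttp stay below -0.4, Npc1l1 stays between 0.37 and 0.63, and Fabp2 lies on both sides of 0.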

How the data were processed

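RNA of 8 organoid libraries, 4 control and 4 RANKL by their labels, was read with the QuantSeq forward 3′ kit as single reads of 50 bases. The authors removed adapter, ribosomal and mitochondrial sequence, aligned to GRCm38 with STAR and counted by strand on Ensembl release 94 genes with featureCounts. The deposited values are these raw counts, without normalization. Identifiers were given symbols and coordinates from GENCODE release M21 (54495 of 54532 matched, and all 161 listed symbols).

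The test was edgeR 4.0.16 under R 4.3.3, which fitted RANKL against control on all 8 libraries with TMM factors, its filter on low counts and no further term. The standard error is the log2 fold change over the square root of F, and 95% intervals are normal. Exact permutation tests used scipy 1.17.1, and ratios had 0.5 added to each count. Alternatives were DESeq2 1.42.0 (size factors, Wald test), limma-voom (limma 3.58.1), library totals alone, no filter, a minimum of 10 counts per library, a block for the replicate number, library depth as a covariate, 1 draw thinned to the shallowest total, an adjusted p of 0.01, other pseudocounts and each library left out. Leaving out the 2 shallowest libraries was added after the data were seen. The steps were tested on simulated data.

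The members, lists and motifs were chosen with earlier results of these data known, the motifs after the promoter letters had been seen. Named from each list were up to 4 genes past the threshold with the largest change among genes averaging 5 CPM or more, and for each member the 3 genes most alike. Values of 2 genes that this rule named are not reported here. Where a gene is at 0, its true level may reach 3 counts, or 0.384 CPM at the greatest depth and 5.14 CPM at the smallest. Such limits, and counting intervals, leave out every error but counting. Library pairs of one condition differed by more than counting noise (chi-square per degree of freedom 1.25 to 11.9), so none was merged.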

Additional observations from a re-analysis of the deposited data

Results flagged for a closer look

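Among 74 groups of 4 libraries (the 10 lipid absorption genes and the 27 that the rule picked from the lists, in each condition), a single library lay far from the 3 others in 2, by a gap beyond Dixon's critical value, where chance gives about 1 in 20, or 3.70. Control replicate 3 had 66.1 CPM of Npc1l1, and the nearest other control 104.1 CPM. Without that library the log2 change of Npc1l1 was 0.37 in place of 0.54. RANKL replicate 2 had 60.6 CPM of Sar1b, and the nearest other RANKL library 47.2 CPM.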

How the results depend on the processing

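Over the 10 lipid absorption genes and their alternatives, 157 values kept direction and side of the threshold, 10 lost the call, 8 gained one and 3 changed sign, all 3 for Fabp2 (0.00 with library totals alone, 0.03 without control replicate 1, 0.05 without RANKL replicate 3; from -0.08 to 0.05 with 1 library left out). Over the 27 genes that the rule picked from the lists, 399 kept both and 83 lost the call. The number of the 10 genes that rose went from 3 to 1 with library depth as a covariate (Dgat2), to 1 without the 2 shallowest libraries (Npc1l1) and to 1 at an adjusted p of 0.01 (Npc1l1), and the cause was not tested. Of all genes, 733 rose and 669 fell in thinned libraries, which hold fewer counts and left 7193 genes to test. With the covariate 808 fell, and at 0.01 707 fell. With 1 library left out, 814 to 1234 of all genes fell, and 11 to 20 of the wider list, both fewest without RANKL replicate 4. At 0.01, 10 of the wider list fell. Without a filter on low counts the median log2 change of all genes was -0.107.

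Leaving out 1 library leaves 3 against 4, where the exact test cannot go below 0.0571, so no ratio can pass. The shifts then ran from -0.21 to -0.12 for Apoa4 to Apoa1, 0.69 to 0.80 for Dgat2 to Dgat1, -1.14 to -0.72 for Cd36 to Npc1l1, and -0.04 to 0.13 for Mttp to Apob, which changed sign without control replicate 3 (-0.02) or 4 (-0.04) or RANKL replicate 1 (-0.03) or 4 (-0.00).

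Same-numbered libraries deviated together only weakly (r from -0.033 to 0.101), and differently numbered ones had r from -0.134 to 0.086. Such weak values cannot settle whether the numbers pair the libraries, and the labels do not say. With the replicate number as a block, 3 of the 10 genes rose and 4 fell, Fabp1 being added, Creb3l3 of the wider list also passed, and 2610 of all genes passed against 2587.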

Other observations

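Ileal genes were read as a check of the regional identity of the organoids. Slc51a and Slc51b, the subunits of the basolateral bile acid exporter, were the 2 of 5 with enough counts to test, and neither passed the threshold in edgeR, DESeq2 or limma-voom or reached an unadjusted p below 0.05 (log2 changes 0.06 and 0.31). Fabp6, the ileal bile acid-binding relative of Fabp1 and Fabp2, had 3 counts over the 4 control libraries and 28 over the 4 RANKL libraries. Every RANKL library held 3 or more of these counts and no control more than 2. This is a ratio of 26.3 for depth-scaled counts, with a 95% counting interval from 8.11 to 135.0. Its counts are below the filter of the test reported. With no filter on low counts its edgeR adjusted p was 3.3e-07. It also entered the fits without control replicate 4 and without RANKL replicate 2, but passed the filter there only through the RANKL group, so these add no support. Slc10a2, the apical bile acid carrier of the ileum, had 14 and 13 counts, a ratio of 2.61 (counting interval 1.13 to 5.99), and Fgf15, the hormone released by ileal cells that sense bile acids, 49 and 32, a ratio of 1.84 (1.14 to 2.93). The intervals leave out the spread between libraries. For both genes the CPM values of the groups overlapped. With no filter on low counts the edgeR adjusted p was 0.36 for Slc10a2 and 0.26 for Fgf15, so neither passed the threshold.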
